A study of Mus musculus with 42 samples.

Results

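Brown adipose tissue (BAT) of mice given VAAM was compared with that of mice given water, on 7 arrays against 7, which are 14 of the 42 arrays of the series. The members were chosen by sample title alone, without any measured value. All mice were male ddY mice, an outbred stock, 5 weeks old before a week of acclimation. Each of 5 daily gavages gave 37.5 μL per g of body weight. The VAAM mice received a 1.8% solution of VAAM, a mixture of free amino acids that imitates the larval saliva of Vespa hornets and holds more proline, glycine, threonine and tryptophan than a usual diet. The water mice received distilled water (labelled DW) alone. Food was removed shortly before the last gavage, and the tissue was taken 4 h after it, so both groups were short of food for the same time. The comparison covers the whole mixture and not any single amino acid. Liver and white adipose tissue (WAT) of the same design gave the other 28 arrays.

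Brown fat burns fatty acids and glucose to make heat. Noradrenaline from sympathetic nerves acts on beta-adrenergic receptors, cAMP rises, lipid droplets are broken down, and the uncoupling protein Ucp1 lets protons flow back across the inner mitochondrial membrane without making ATP. The same cAMP signal switches on a set of short-lived transcripts, the immediate early genes, and the deiodinase gene Dio2, whose enzyme activates thyroid hormone inside the cell. Amino acids act on other pathways, among them the mTOR complexes, which sense amino acid supply, and the transcription factor ATF4, which turns on amino acid transporters and biosynthetic enzymes when amino acids are scarce.

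The labelled tissue bore out its markers. In the 7 water mice the median deposited value of Ucp1 was 14.22 in BAT, 6.36 in WAT and 6.39 in liver, and that of the lipid droplet gene Cidea was 14.05, 6.83 and 6.32. Leptin (Lep) and Hoxc8, which mark white fat, were at 7.14 and 6.13 in BAT against 10.93 and 10.90 in WAT. Albumin (Alb) was at 6.57 in BAT and 15.00 in liver. These are levels on the deposited log2 scale, each compared within 1 probe set.

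The authors' summary method, distribution free weighted fold change (DFW), pulls the arrays of a probe set together when they differ little. The median SD within groups in BAT was 1.06e-05 on the log2 scale, and the 14 values spanned more than 0.1 in 213 of 45037 probe sets. A difference of deposited values is therefore not a fold change. Differences are given as the mean of the VAAM mice less that of the water mice, in units of the pooled SD within groups, ± the standard error, with n = 7 per group. Levels of single mice are given on the deposited log2 scale for probe sets with a range over 0.1, and otherwise as SD from the water mean. Exact p values are two-sided and come from all 3432 splits of the 14 mice, the smallest possible value being 0.000583. Each gene is read from the probe set with the highest BAT mean among those that name it alone, unless another is mentioned. The base of the logarithm is not given in the sources used here, and 2 is assumed because the values reach no further than log2 intensities do. Nothing says more of the replicates than that they are separate mice of a group.

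Mice 3 and 5 of the VAAM group stood apart from the other 12 arrays, with scores of 2.96 SD on the first and 2.92 SD on the second principal component, and VAAM mouse 6 scored 2.04 SD on the third. The array medians lay between 6.7739 and 6.7754. Quantile normalization of the arrays moved the median difference over all 18193 genes from +0.02 to -0.21 SD. The share of genes with a higher VAAM mean fell from 51.4% to 11.9%, and the SD was computed anew. A small positive difference thus often turns negative with the whole table. Directions after quantile normalization are read against that shift. Of the 127 named genes 35 had the opposite sign after it, and of 49 list and marker genes past an unadjusted limma p of 0.05, 12 did.

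No probe set differed between the groups after adjustment: limma called 0 of 45037 at an adjusted p under 0.05 (0% called), with a smallest adjusted p of 0.469. The exact rank sum test called 0 as well, but its smallest possible p was 0.000583. Adjustment over 45037 probe sets leaves such a p above 0.05 unless many probe sets reach it together. Its 0 therefore adds nothing to the limma result. A single fit over the 42 arrays, with 1 estimate of the spread for all tissues, called 101 probe sets higher and 214 lower. Such an estimate can misjudge the spread within BAT. Dio2 ran from 7.51 to 7.89 in BAT but was at 6.28 in every WAT and 6.10 in every liver array. Mndal went the other way, from 5.77 to 6.45 in BAT and from 5.68 to 7.47 in WAT. The calls of that fit are therefore not read as differences in BAT. With the p left unadjusted, 975 probe sets met the limit of 0.05 higher and 1321 lower in the VAAM mice, 5.1% of all. Over the 18193 genes the same limit was met by 385 genes higher (2.12%) and 407 lower (2.24%), and these shares are the background for every list below. The split was uneven among the most variable genes. Of 1934 genes whose probe set had an SD in the top 10% of all, 61 met the limit higher and 21 lower. Of 119 genes with a range over 0.1, 106 had a higher VAAM mean, but 3 met the limit higher and 0 lower. Of the 213 probe sets with such a range, 68 were highest in VAAM mouse 3 and 68 in water mouse 1, and 68 followed the mean of skeletal muscle markers across the mice with a correlation over 0.8.

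The leading genes of thermogenesis did not differ by a detectable amount, on a scale that left them almost no range. Ucp1 differed by -0.15 ± 0.535 SD (exact p 0.778) over a range of 5.93e-06 on the log2 scale. Cidea differed by +0.30 ± 0.538 SD (exact p 0.578) over a range of 2.04e-05. Values so close together cannot show that these genes were unchanged. Of the 19 measured genes of brown fat identity and thermogenesis, 11 had a higher and 8 a lower VAAM mean, with a median of +0.15 SD against +0.02 SD over all genes, and 0 genes met the unadjusted limit higher and 2 lower. Those were Cox7a1, a subunit of cytochrome oxidase, and Esrra, a nuclear receptor that drives mitochondrial genes. Cox7a1 lay between -1.39 and 1.03 SD in the water mice (median 0.10) and between -3.99 and -0.42 SD in the VAAM mice (median -1.08). All 7 VAAM mice were below the water median, the lowest being VAAM mouse 3, and the groups overlapped. The difference was -1.38 ± 0.595 SD (exact p 0.0111, limma adjusted p 0.933), and it turned to +0.20 SD after quantile normalization. Esrra differed by -1.25 ± 0.584 SD (exact p 0.0385).

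Dio2 had the widest range of the thermogenic genes. Its water values ran from 7.51 to 7.74 on the deposited log2 scale (median 7.68), and its VAAM values from 7.55 to 7.89 (median 7.76). 6 of 7 VAAM mice lay above the water median, and VAAM mouse 4 lay near the bottom of the water range. The difference was +1.0 ± 0.567 SD (exact p 0.0862), all 3 probe sets that name Dio2 were higher, and it came to +0.60 SD without VAAM mice 3 and 5. Ppargc1a, the coactivator of mitochondrial biogenesis, differed by +0.42 ± 0.54 SD (exact p 0.446), with all 5 of its probe sets higher.

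The genes that cAMP and other acute signals induce leaned to higher values. Of 22 measured immediate early genes, 17 had a higher VAAM mean, and the median difference was +0.59 SD against +0.02 SD over all genes. After quantile normalization the median was 0.01 SD, against -0.21 SD over all genes, and without VAAM mice 3 and 5 it was 0.28 SD. 4 of the 22 met the unadjusted limit higher and 0 lower, where 2.12% of all genes did so. They were Fosl2 and Jun, which encode parts of the AP-1 transcription factor, Crem, which encodes a repressor of cAMP-driven transcription, and Sik1, a kinase gene that cAMP induces and that feeds back on CREB coactivators.

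Fosl2 did not overlap between the groups, and the share of all probe sets without overlap is not given here. The water mice lay between -1.04 and 1.39 SD (median -0.21) and the VAAM mice between 1.68 and 4.62 SD (median 1.89), the highest being VAAM mouse 6. The difference was +2.41 ± 0.703 SD (exact p 0.000583, limma adjusted p 0.837), while the other probe set of Fosl2 differed by +0.01 SD. Sik1 lay between -0.98 and 1.92 SD in the water mice (median -0.27) and between 0.03 and 3.11 SD in the VAAM mice (median 1.85). Every VAAM mouse was above the water median, with overlap at both ends. It differed by +1.69 ± 0.623 SD (exact p 0.0117), while its other probe set differed by -0.62 SD. Jun differed by +1.23 ± 0.583 SD and Crem by +1.29 ± 0.587 SD (exact p 0.0414 and 0.0385), and after quantile normalization by 0.67 and -0.16 SD.

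Not all members leaned this way. Egr1, a zinc finger factor induced within minutes, differed by -0.40 SD, Junb by -0.55 SD and Fos by -0.08 SD, with exact p of 0.464, 0.320 and 0.886. The nuclear receptors Nr4a1 and Nr4a3 had ranges of 0.606 and 0.142 on the log2 scale. Nr4a3 ran from 7.28 to 7.36 in the water mice (median 7.30) and from 7.29 to 7.42 in the VAAM mice (median 7.34), a difference of +1.08 ± 0.572 SD (exact p 0.0577). Nr4a3 was higher in 2 of its 3 probe sets, the lowest being at -0.48 SD. Nr4a1 differed by +0.94 SD (exact p 0.102).

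Several genes of the glucocorticoid-responsive list had large differences. These genes respond to corticosterone through the glucocorticoid receptor, and several respond to cAMP or insulin as well, so the name of the list does not fix the signal. Of 14 measured, 10 had a higher mean (median +0.17 SD), 4 met the unadjusted limit higher and 1 lower. After quantile normalization the median was 0.10 SD against -0.21 SD over all genes. Errfi1, which encodes an inhibitor of the EGF receptor, lay between -1.26 and 2.10 SD in the water mice (median -0.11) and between 1.04 and 3.17 SD in the VAAM mice (median 2.09). Only water mouse 6 reached the VAAM range. The difference was +2.21 ± 0.678 SD (exact p 0.0035), with both probe sets higher.

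Per1, a repressor of the circadian clock that also responds acutely to cAMP and glucocorticoids, lay between -1.01 and 2.16 SD in the water mice (median -0.74) and between 0.80 and 2.96 SD in the VAAM mice (median 1.74). All 7 VAAM mice were above the water median. It differed by +1.81 ± 0.635 SD (exact p 0.00932). Cebpd, a transcription factor of early adipocyte differentiation, differed by +1.72 ± 0.626 SD (exact p 0.0117), and the water median lay below all 7 VAAM mice. Water mouse 6 alone, at 2.65 SD, lay above every VAAM mouse. The glucocorticoid receptor gene Nr3c1 differed by +1.40 SD (exact p 0.0268), and by -0.15 SD after quantile normalization. Zbtb16, a zinc finger gene that glucocorticoids induce, went the other way at -1.24 ± 0.584 SD (exact p 0.0385). It was at -0.09 SD after quantile normalization and at -0.92 SD without VAAM mice 3 and 5. The rest of the clock did not lean with Per1. 9 of 17 measured core clock genes had a higher mean, the median was +0.01 SD, and Per1 was the only one that met the unadjusted limit.

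The DNA before the start sites of 4 genes with large differences or a wide range is shown as examples. Other genes such as Fosl2 and Nr4a1 fit that description too and are not shown. Whether any signal acts on this DNA was not tested. The sequences are the 250 bases before the RefSeq start site on build GRCm38.p6, written 5′ to 3′ on the strand of the gene, with capitals for the letters of a motif on either strand. The motifs searched were the cAMP response element TGACGTCA and its variant TGACGCAA, the heat shock element GAANNTTC, the amino acid response element TGATGNAA, the E-box CACGTG and the D-box TTATGNAA. The table holds 250 bases before and 50 after the start of 14452 of the 18193 genes.
Dio2, chr12:90739039-90739288, minus strand, with a cAMP response element that begins 95 bases before the start site: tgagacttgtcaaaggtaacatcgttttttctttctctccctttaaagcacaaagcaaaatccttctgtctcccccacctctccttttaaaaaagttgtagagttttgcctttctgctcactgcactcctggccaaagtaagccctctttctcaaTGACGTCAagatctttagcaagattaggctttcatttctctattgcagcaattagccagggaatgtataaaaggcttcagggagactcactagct
Errfi1, chr4:150854820-150855069, plus strand, with a cAMP response element that begins 51 bases before the start site: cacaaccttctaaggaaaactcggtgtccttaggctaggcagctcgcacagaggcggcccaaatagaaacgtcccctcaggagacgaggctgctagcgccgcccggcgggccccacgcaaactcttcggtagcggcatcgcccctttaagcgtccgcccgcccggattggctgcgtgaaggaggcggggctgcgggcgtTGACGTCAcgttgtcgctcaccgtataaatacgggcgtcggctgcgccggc
Per1, chr11:69098699-69098948, plus strand, with an E-box that begins 166 and a D-box that begins 24 bases before the start site: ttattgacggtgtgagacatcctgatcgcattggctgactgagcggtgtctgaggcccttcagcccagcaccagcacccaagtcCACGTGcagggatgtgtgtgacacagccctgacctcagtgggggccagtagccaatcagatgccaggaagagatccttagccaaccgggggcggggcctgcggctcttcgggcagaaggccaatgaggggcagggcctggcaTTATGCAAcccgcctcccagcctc
Irs2, chr8:11008930-11009179, minus strand, with an E-box that begins 44 bases before the start site: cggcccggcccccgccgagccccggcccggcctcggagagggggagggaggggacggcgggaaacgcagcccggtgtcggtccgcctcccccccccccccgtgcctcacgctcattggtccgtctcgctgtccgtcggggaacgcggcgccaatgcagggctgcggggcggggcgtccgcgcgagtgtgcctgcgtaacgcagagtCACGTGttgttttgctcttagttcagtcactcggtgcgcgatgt

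The cAMP response element was found in the promoters of 1 of 18 immediate early genes with a promoter in the table (5.56%), against 2.92% of all genes. The E-box was found in 4 of 18 (22.2%) against 10.2%, the heat shock element in 8 of 10 heat shock chaperone genes (80.0%) against 7.6%, and the amino acid response element in 8 of 23 genes of the ATF4 pathway (34.8%) against 3.24%. A match is a match of letters only.

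Among the insulin and adipokine genes, Irs2 had the largest positive difference of the genes with a range over 0.1. Irs2 encodes an adaptor of the insulin receptor, and its transcript is induced by cAMP and fasting and lowered by insulin. The water values ran from 7.65 to 7.74 (median 7.67) and the VAAM values from 7.71 to 7.79 (median 7.74) on the deposited log2 scale. All 7 VAAM mice were above the water median, and water mice 2 and 6 reached into the VAAM range. The difference was +2.13 ± 0.669 SD (exact p 0.00524, limma adjusted p 0.901), and it was 2.26 SD without VAAM mice 3 and 5. The resistin gene Retn, an adipokine, lay between -1.65 and 1.17 SD in the water mice (median 0.23) and between 0.76 and 3.37 SD in the VAAM mice (median 2.57). It differed by +2.11 ± 0.667 SD (exact p 0.00233), and the water median lay below all 7 VAAM mice. Retn was the only 1 of 8 white adipocyte markers that met the unadjusted limit, and 6 of those 8 had a lower mean. The adiponectin gene Adipoq differed by +1.96 SD (exact p 0.00437) over a range of only 6.22e-06 on the log2 scale, and by -0.33 SD after quantile normalization.

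The whole list of insulin, IGF and adiponectin signalling genes did not lean: 12 of 22 had a higher mean (median +0.13 SD), and 2, Irs2 and Adipoq, met the limit higher and 0 lower. Foxo1, a factor that insulin holds out of the nucleus, differed by +0.76 ± 0.554 SD (exact p 0.183) and by -0.46 SD after quantile normalization, and Irs1 by +0.86 SD (exact p 0.131). Igf1 and Gsk3b differed by +0.65 and +0.79 SD (exact p 0.244 and 0.167), the first with all 4 and the second with 2 of 6 probe sets higher, and after quantile normalization by 0.49 and -0.26 SD. The adiponectin receptor genes Adipor1 and Adipor2 differed by -0.87 and -0.25 SD (exact p 0.135 and 0.632).

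**Figure D1:**
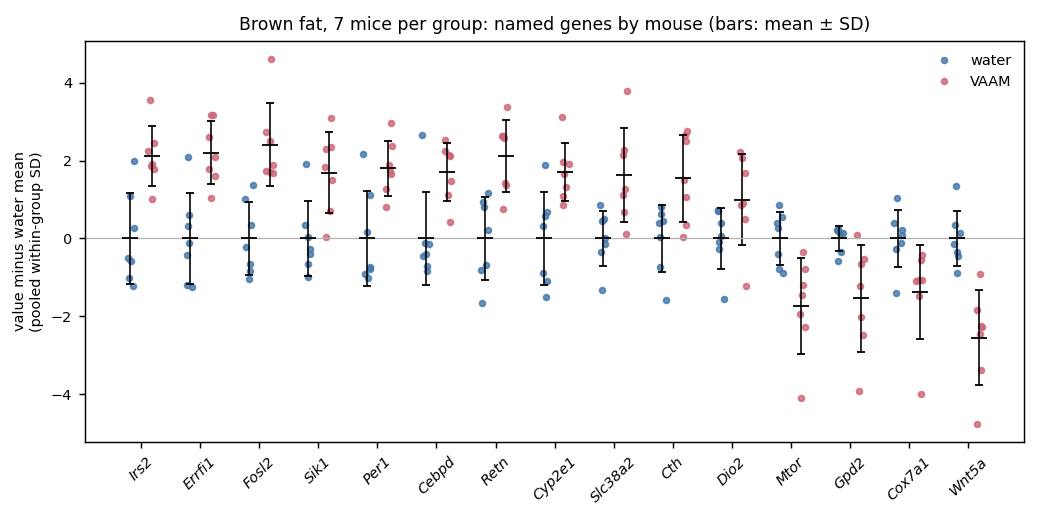
Values of 15 named genes in the 7 water mice (blue) and 7 VAAM mice (pink) of brown fat, as value minus water mean in units of the pooled within-group SD, with black bars for mean ± SD. Fosl2 and Wnt5a do not overlap between the groups, and the share of all probe sets without overlap is not given here. Single mice of either group lie far from the rest in Cebpd, Mtor and Gpd2.

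Of 30 measured genes of the ATF4 pathway, 19 had a higher mean (median +0.25 SD, -0.24 SD after quantile normalization), and 2 met the unadjusted limit higher and 0 lower. These were Cth, which makes cysteine from cystathionine, and Impact, an inhibitor of the amino acid sensing kinase Gcn2. Cth lay between -1.59 and 0.81 SD in the water mice (median 0.39) and between 0.05 and 2.76 SD in the VAAM mice (median 1.49), 5 of 7 above the water median. It differed by +1.55 ± 0.61 SD (exact p 0.0169), and Impact by +1.54 SD (exact p 0.00991). After quantile normalization Cth was at 0.81 and Impact at -0.10 SD. The usual sentinels of the pathway differed by little. Asns differed by +0.26 SD, Trib3 by +0.23 SD, Chac1 by +0.38 SD and Ddit3 by +0.63 SD, and Atf5 by -0.91 SD (exact p 0.660, 0.679, 0.494, 0.252 and 0.101). Ddit4, an inhibitor of mTOR that stress and glucocorticoids induce, ran from 8.14 to 8.56 in the water mice (median 8.27) and from 8.36 to 8.70 in the VAAM mice (median 8.40). Every VAAM mouse was above the water median, but water mouse 6 was high too, and the difference was +1.0 ± 0.567 SD (exact p 0.0857).

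Amino acid transporter genes were split. 13 of 20 had a higher mean (median +0.14 SD, -0.22 SD after quantile normalization), 2 met the limit higher and 0 lower. Slc38a2, the SNAT2 carrier of small neutral amino acids, lay between -1.34 and 0.86 SD in the water mice (median 0.02) and between 0.13 and 3.79 SD in the VAAM mice (median 1.28). It differed by +1.63 ± 0.617 SD (exact p 0.00641), and the water median lay below all 7 VAAM mice. Of its 3 probe sets 2 were higher, and the lowest differed by -0.57 SD. After quantile normalization it differed by -0.24 SD, beside the shift of -0.21 SD over all genes. Slc7a10, a carrier of glycine, serine and alanine, differed by +1.27 SD (exact p 0.0350), and Slc1a5, the ASCT2 carrier of glutamine, by -1.11 ± 0.574 SD (exact p 0.06).

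In the list of mTOR complexes and nutrient sensing, the kinase itself and its activator differed in opposite directions on the deposited scale. Mtor lay between -0.89 and 0.86 SD in the water mice (median 0.27) and between -4.11 and -0.35 SD in the VAAM mice (median -1.45), all 7 of them below the water median. It differed by -1.73 ± 0.626 SD (exact p 0.00583), and all 3 probe sets were lower. After quantile normalization Mtor was at -0.23 SD, close to the -0.21 SD of all genes. Rheb, the small GTPase that activates mTOR complex 1, differed by +1.33 ± 0.591 SD (exact p 0.0332). It was at 0.02 SD after quantile normalization and at 1.14 SD without VAAM mice 3 and 5. Rictor, a subunit of complex 2, differed by +1.28 SD (exact p 0.0367), turning to -0.57 SD after quantile normalization. The list had 16 of 26 genes higher and a median of +0.03 SD, with 2 genes past the unadjusted limit higher and 1 lower. The enzymes of glycine, serine, threonine, proline and tryptophan metabolism had 9 of 14 genes higher (median +0.17 SD), with 0 past the limit in either direction. The branched-chain amino acid breakdown list had 8 of 21 higher (median -0.16 SD), 0 past the limit higher and 1 lower, the leucine pathway gene Auh (-1.27 ± 0.586 SD, exact p 0.0204), and its median was 0.39 SD without VAAM mice 3 and 5.

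Genes of fuel use leaned the other way on the deposited scale. Of 95 measured genes of the respiratory chain and ATP synthase (chosen by gene name, assembly factors among them), 77 had a lower mean (median -0.50 SD), and 0 met the unadjusted limit higher and 7 lower, where 2.24% of all genes did so. Glucose uptake and use had 17 of 20 lower (median -0.52 SD), with Pgk1 and Ldhb past the limit, and fatty acid oxidation had 15 of 20 lower (median -0.42 SD), with 0 past it. After quantile normalization the 3 medians were -0.15, -0.21 and -0.17 SD, which is no lower than the -0.21 SD of all genes. Without VAAM mice 3 and 5 they were -0.24, -0.43 and -0.20 SD, and without VAAM mouse 3 alone the first was -0.16 SD. The mean of the respiratory chain genes was -2.37 SD in VAAM mouse 3, -0.43 to 0.01 SD in the other 6 VAAM mice and -0.44 to 0.45 SD in the water mice, so 1 mouse lay apart and the others overlapped the water mice. Pgk1, a glycolytic kinase, lay between -0.52 and 0.83 SD in the water mice (median -0.15) and between -4.03 and -0.21 SD in the VAAM mice (median -0.92). It differed by -1.32 ± 0.59 SD (exact p 0.00583), with all 3 probe sets lower, and by -0.14 SD after quantile normalization. Hadha, a subunit of the trifunctional protein of beta-oxidation, differed by -1.08 SD (exact p 0.0635).

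In the list of lipolysis and lipid droplet genes, 7 of 14 had a higher and 7 a lower mean (median +0.09 SD), with 1 past the limit higher and 3 lower. G0s2, the inhibitor of adipose triglyceride lipase, differed by +1.30 ± 0.588 SD (exact p 0.0251). Hormone-sensitive lipase (Lipe), the droplet protein gene Plin3 and the glycerol channel gene Aqp7 differed by -1.24, -1.43 and -1.50 SD (exact p 0.0210, 0.0210 and 0.0169). Gpd2, the mitochondrial glycerol-3-phosphate dehydrogenase that is abundant in brown fat, lay within -0.59 to 0.24 SD in the water mice (median 0.14) and from -3.93 to 0.08 SD in the VAAM mice (median -1.22). It differed by -1.54 ± 0.608 SD (exact p 0.00466), and all 4 probe sets were lower. After quantile normalization Gpd2 was at -0.19 SD, no lower than all genes, and Lipe and Plin3 were at -0.09 and -0.29 SD. Mogat1, a monoacylglycerol acyltransferase, differed by +1.30 SD (exact p 0.0379). Fatty acid synthesis, with 6 of 19 higher, cholesterol synthesis, with 6 of 16 higher, and fatty acid uptake, with 7 of 12 higher, had medians of -0.17, -0.17 and +0.24 SD and 0 genes past the limit in either direction.

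**Figure D2:**
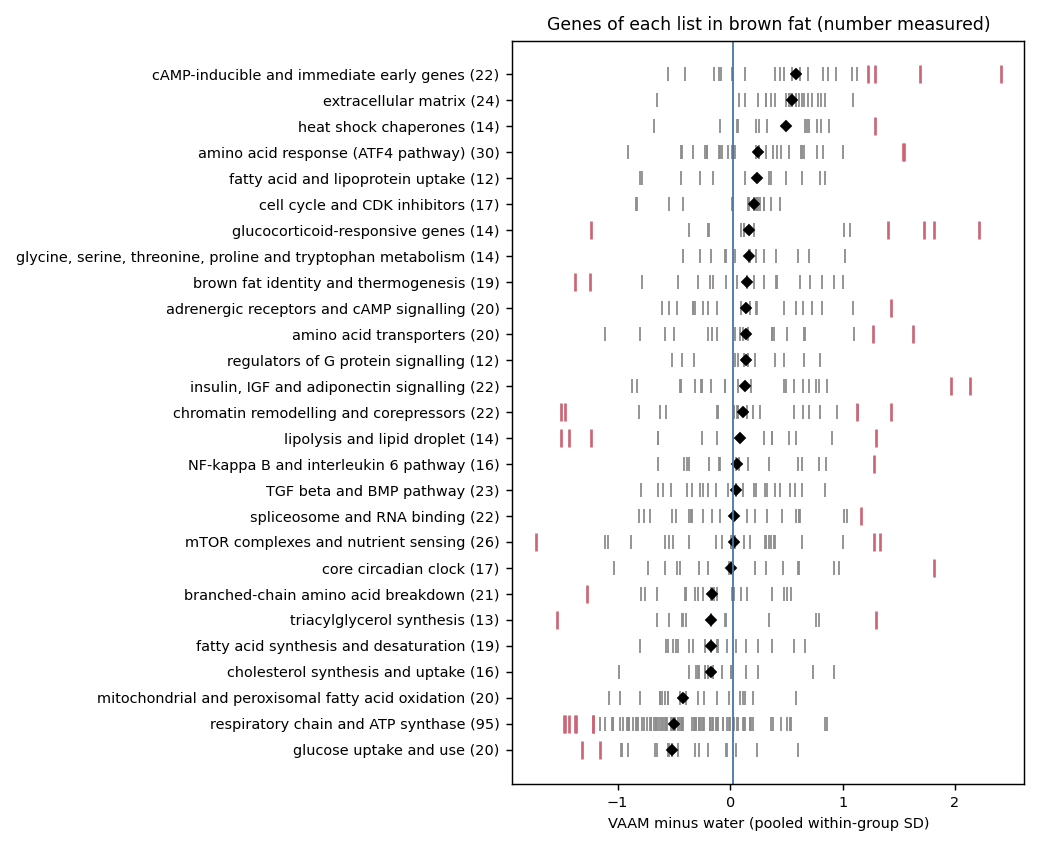
Each row is a gene list, each tick the VAAM minus water difference of a measured gene in pooled within-group SD, pink where its unadjusted limma p was under 0.05, with the list median as a diamond and the median of all genes as a blue line. The list medians lie between -0.52 SD for glucose uptake and use and 0.59 SD for the immediate early genes, and the ticks of every list span the line.

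Genes with a range over 0.1 are those the summary method left least compressed. Each is read here from the probe set with that range. Of these, the 8 highest by difference were Irs2, Cyp2e1, Depp1, Rasd1, Mfsd2a, BC018473, Nr4a3 and Ddit4. Cyp2e1, a cytochrome P450 that fasting and ketones raise, ran from 9.61 to 9.72 in the water mice (median 9.67) and from 9.69 to 9.77 in the VAAM mice (median 9.72). It differed by +1.71 ± 0.624 SD (exact p 0.00816), and the water median lay below all 7 VAAM mice. Depp1, a target of the FOXO factors, ran from 8.31 to 8.41 (median 8.34) and from 8.37 to 8.44 (median 8.38), a difference of +1.39 SD (exact p 0.0251). Rasd1, a small G protein gene induced by glucocorticoids, ran from 9.20 to 9.28 and from 9.25 to 9.33, a difference of +1.30 SD (exact p 0.0291). Mfsd2a, a lipid carrier induced by fasting and beta-adrenergic signals, ran from 6.39 to 6.43 (median 6.40) and from 6.39 to 6.60 (median 6.44), and differed by +1.12 ± 0.575 SD (exact p 0.0146).

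The 8 lowest genes of this kind were Secisbp2l, Hdlbp, Tns1, Ankrd11, Malat1, Wnk1, Nedd4 and Itsn2, at -0.80 to -1.0 SD. VAAM mouse 5 was the lowest mouse in each of them. None of these probe sets was the brightest of its gene. Nedd4 was lower in 1 of its 3 probe sets (highest +0.15 SD) and Itsn2 in 3 of 6 (highest +0.58 SD). The others were lower in every probe set. Wnk1, a kinase gene, ran from 7.74 to 7.79 in the water mice (median 7.77) and from 7.32 to 7.76 in the VAAM mice (median 7.73), all 7 VAAM mice being below the water median (exact p 0.0111). Without VAAM mice 3 and 5 its difference was -1.43 SD, that of Secisbp2l -1.80 SD, and that of Itsn2 -1.46 SD. Malat1, a nuclear non-coding RNA, ran from 8.74 to 8.79 and from 8.56 to 8.77, with all 7 probe sets lower (difference -0.85 SD, exact p 0.0519).

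Markers of the other cells in the tissue were read next, since a bulk sample cannot tell fewer cells of a type from less RNA per cell. Skeletal muscle genes varied widely in both groups, with ranges from 0.301 for Myl1 to 8.04 for Acta1 on the log2 scale. The muscle actin gene Acta1 ran from 7.32 to 15.10 in the water mice (median 8.58) and from 7.05 to 14.73 in the VAAM mice (median 10.96). It was above 9 in water mice 1, 3 and 7 and in VAAM mice 1, 4, 5 and 7, and in no mouse did it pass 7.20 in WAT or 6.76 in liver. All 18 muscle markers had a slightly higher VAAM mean (+0.06 to +0.22 SD), and with their mean as a covariate, limma still called 0 probe sets. It called 0 without the covariate too, so this count cannot show what part muscle had.

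Fibroblast and progenitor markers were higher in 9 of 9 cases (+0.36 to +1.02 SD), and extracellular matrix genes, which those cells make, in 23 of 24 (median +0.55 SD). Dpt, Dcn and Lum are in both lists, so the counts are not separate. In either list 0 genes were past the unadjusted limit. The highest were Clec3b (+1.02 SD, exact p 0.0822) and Gsn (+1.09 ± 0.573 SD, exact p 0.0641). The mean of the fibroblast markers ran from -1.47 to 1.01 SD in the water mice (median 0.11) and from -0.53 to 1.68 SD in the VAAM mice (median 0.31), so the groups overlapped over most of their length. Without VAAM mice 3 and 5 the 2 medians over genes were 0.46 and 0.28 SD.

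Heat shock chaperones had 12 of 14 genes higher (median +0.50 SD), 1 past the limit higher and 0 lower, with -0.02 SD after quantile normalization, and 0.27 SD without VAAM mice 3 and 5. The 1 gene was Bag3, a cochaperone (+1.29 ± 0.587 SD, exact p 0.0344). Hspa1b, the inducible HSP70, was highest in VAAM mouse 5 at 7.80 on the log2 scale in a second probe set, against 7.11 to 7.36 in the other 13 mice.

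VAAM mouse 3 carried the highest T cell score, 2.40 SD against -0.37 to 0.32 SD in the water mice, and the highest macrophage score, 2.39 SD against -0.96 to 1.40 SD. The other 6 VAAM mice had T cell scores of -0.72 to 0.33 SD, and without VAAM mice 3 and 5 the medians over T cell and macrophage genes were -0.48 and -0.46 SD. B cell markers were lower in 5 of 7 cases, with the VAAM mice at -1.03 to -0.13 SD and the water mice at -0.79 to 0.52 SD. Endothelial markers were lower in 8 of 10, brown adipocyte markers higher in 6 of 10, smooth muscle markers higher in 5 of 8, thymocyte markers higher in 2 of 6, nerve markers higher in 4 of 6 and red blood cell markers higher in 3 of 3. None of the genes of these lists met the unadjusted limit other than Cox7a1 and Retn. The part of these cells and of muscle in the differences above was not tested.

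**Figure D3:**
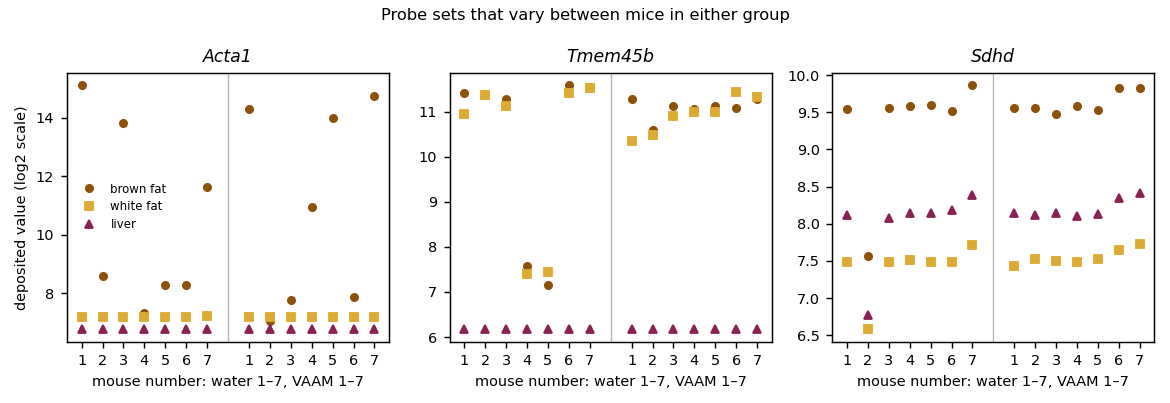
Deposited log2 values of 3 probe sets in each mouse number of the water group (left of the line) and the VAAM group (right), in brown fat, white fat and liver. Acta1 varies in brown fat alone, Tmem45b is low in water mice 4 and 5 in both fats, and Sdhd is low in water mouse 2 in all 3 tissues.

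Part of the variation between mice was found again under the same mouse number in the other tissues. Tmem45b, which encodes a membrane protein, was at 7.58 and 7.16 in water mice 4 and 5 and at 10.60 to 11.58 in the other 12 mice of BAT, and at 7.39 and 7.44 against 10.34 to 11.52 in WAT. Sdhd, a subunit of succinate dehydrogenase, was at 7.56 in water mouse 2 and at 9.48 to 9.86 in the others in BAT, and water mouse 2 was the lowest in WAT and liver too, at 6.58 and 6.77. Gdpd3, Mndal and Uqcr10 fell into a low and a high class of mice. Their deviations from the group means correlated between BAT and WAT at 0.99, 0.97 and 0.99, and between BAT and liver at 0.98, 0.93 and 0.99, over 14 mice, as a description. Of the 213 probe sets with a range over 0.1, 30 had a correlation over 0.8 between BAT and WAT and 17 between BAT and liver, against 1.39% and 0.884% of all probe sets. These 5 genes were chosen after their values had been seen.

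The study's own method was rank products over all 49 pairings of VAAM with water arrays, at a false discovery rate under 0.05. Applied to these values, it called 979 probe sets higher and 1011 lower. They name 643 genes higher (3.53% of 18193) and 720 lower (3.96%). Of the 1821 probe sets called, 96.1% lay in the 10% with the largest SD, 305 had an unadjusted limma p under 0.05, and 169 were called in both directions. The 18 muscle markers were each called both higher and lower. The method ranks raw differences, and after division of every probe set by its SD within groups the calls were 120 higher and 48 lower.

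**Figure D4:**
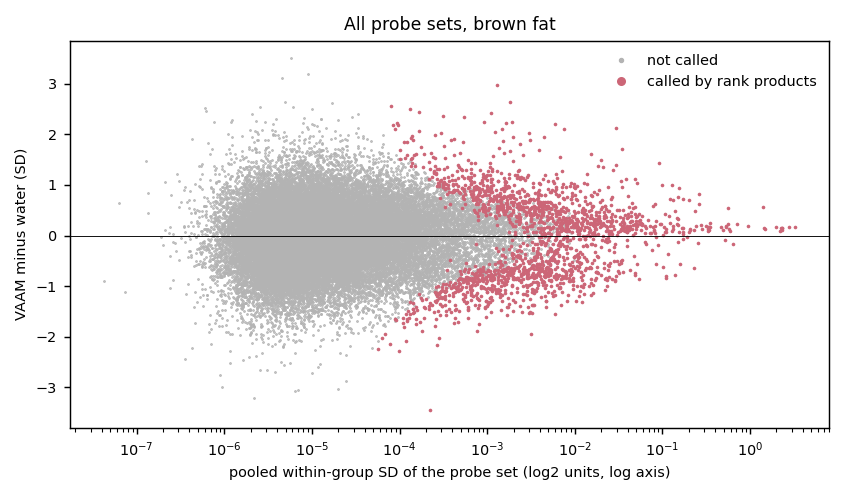
Every probe set in brown fat, with its pooled within-group SD on a log axis against the VAAM minus water difference in SD, and rank products calls in pink. The calls lie at the right, at large SD, in both directions and down to differences near 0, and few of the largest differences are called.

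The genes that the study's BAT table gives as higher or lower were chosen on these samples, so their direction is no independent evidence. The paper had first combined VAAM calls with those of a casein-like amino acid mixture, and its table lists genes of enriched gene ontology terms. Of 48 measured genes from its higher part, 45 had a higher mean (median +0.65 SD), 6 met the unadjusted limit higher and 0 lower, and rank products called a probe set of all 48 higher. The largest was Pnp, a purine nucleoside phosphorylase (+1.88 ± 0.642 SD, exact p 0.00233). Of 59 from its lower part, 32 had a lower mean in their brightest probe set (median -0.11 SD), 4 met the limit lower and 1 higher, although rank products called another or the same probe set of all 59 lower. When the probe sets of a gene were averaged, the median of these genes was -0.80 SD. Crebbp, a histone acetyltransferase and coactivator of CREB, differed by +1.43 ± 0.599 SD in its brightest probe set (exact p 0.0239), while its other 3 probe sets were lower. The chromatin genes as a list had 15 of 22 higher (median +0.11 SD), 2 past the limit higher and 2 lower.

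The genes named in the study's text for G protein, cell cycle and phosphatase signalling differed by less than 1 SD in their brightest probe sets. Rgs2, Rgs3, Rgs5 and Rgs10, which shorten G protein signals, differed by +0.48, +0.07, -0.52 and +0.16 SD (exact p 0.383, 0.891, 0.355 and 0.742). The list of regulators of G protein signalling had 9 of 12 higher (median +0.14 SD), 0 past the limit, and its median was -0.22 SD without VAAM mouse 3. The CDK inhibitor genes Cdkn1b and Cdkn1c differed by +0.30 and -0.83 SD (exact p 0.578 and 0.146), and Cdkn1c by -0.38 SD without VAAM mice 3 and 5. Ptpn6, Ptpn11 and Mapk8 differed by +0.27, -0.41 and -0.46 SD (exact p 0.661, 0.455 and 0.406). Other probe sets of Cdkn1b, Ptpn11 and Mapk8 differed by as much as -1.63, -1.37 and +1.0 SD, and rank products called 1 of each, lower for Cdkn1b and Ptpn11 and higher for Mapk8. Cdkn1b also turned to -0.66 SD in its brightest probe set after quantile normalization. The cell cycle list had 13 of 17 higher (median +0.21 SD), 0 past the limit, and a median of -0.58 SD without VAAM mouse 3. The remaining lists had medians between -0.17 and +0.14 SD: adrenergic receptors and cAMP signalling (11 of 20 higher, with Adra1b the only receptor measured and no beta-adrenergic receptor analysed here), TGF beta and BMP (12 of 23), NF-kappa B and interleukin 6 (9 of 16), triacylglycerol synthesis (4 of 13) and spliceosome genes (11 of 22). In NF-kappa B the 1 gene past the limit was the inhibitor Nfkbia (+1.28 ± 0.586 SD, exact p 0.0256), and the water median lay below all 7 VAAM mice. All 5 of its probe sets were higher.

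Among the 18193 genes, each read from its brightest probe set, those with the smallest limma p were mostly of low or very even expression. The smallest adjusted p among them was 0.805, against 0.469 over all 45037 probe sets. The 10 higher were B3galt2, Calml3, Casd1, Sowahc, Fosl2, Zfp119b, C9orf72, Nnmt, Errfi1 and Spty2d1, at +2.21 to +2.64 SD. B3galt2, a galactosyltransferase, had all 3 probe sets higher and lay between -1.31 and 2.13 SD in the water mice (median -0.29) and between 1.76 and 4.49 SD in the VAAM mice (median 2.36). Nnmt, which methylates nicotinamide and is abundant in fat, differed by +2.23 ± 0.68 SD (exact p 0.00233). Sowahc and Zfp119b did not overlap between the groups (exact p 0.000583 each, the smallest possible value). With the share of all probe sets without overlap not given, this does not set them apart. Casd1 was higher in 1 of its 2 probe sets and Spty2d1 in 3 of 4. Casd1, Calml3, Sowahc, Zfp119b and Spty2d1 had a negative difference after quantile normalization.

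The 10 lower were Wnt5a, Rwdd4a, Tmem268, Crp, Dpf3, Nudt13, Mtr, Pmm1, Cep162 and Ifrd2, at -1.97 to -2.55 SD. Wnt5a, a secreted Wnt ligand, was lower in all 4 probe sets. It lay between -0.89 and 1.36 SD in the water mice (median -0.15) and between -4.76 and -0.92 SD in the VAAM mice (median -2.27). The groups did not overlap, over a range of 2.91e-05 on the log2 scale. Since the share of all probe sets without overlap is not given, the lack of overlap does not set Wnt5a apart. The difference was -2.55 ± 0.72 SD (exact p 0.000583, limma adjusted p 0.805), and -0.50 SD after quantile normalization. Mtr, methionine synthase, differed by -2.07 ± 0.663 SD (exact p 0.00291), with 1 of its 2 probe sets lower. Rwdd4a was lower in 2 of its 3 probe sets, Dpf3 in 1 of 2 and Cep162 in 1 of 3. Crp, a liver acute phase gene, was at 6.57 in BAT and differed by -2.20 SD (exact p 0.00291).

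Differences in BAT were then set against those of the same probe set in WAT and liver. For 127 named genes this gave 254 comparisons, each with an exact permutation test over the label splits of both tissues. None passed adjustment over the 254, the smallest adjusted p being 0.0969, and 56 had an unadjusted p under 0.05. Without VAAM mouse 6, 3 against WAT and 4 against liver passed. That test permutes each tissue on its own, while deviations are shared by mouse number. With the labels of a number permuted together, a test chosen after the data were seen, none passed either, with a smallest adjusted p of 0.0634, but single p values were lower: 0.00641 against 0.135 for Errfi1 against WAT, 0.00816 against 0.231 for Per1 against WAT and 0.0169 against 0.0530 for Fosl2 against liver. Fosl2 differed by +2.41 SD in BAT, +0.07 in WAT and +0.79 in liver (exact p of the difference 0.00593 and 0.0530). Retn differed by +2.11, -0.06 and -0.32 SD (exact p of the difference 0.00731 and 0.00584), Irs2 by +2.13, +0.30 and +0.61 SD, and Wnt5a by -2.55, +0.24 and -0.76 SD. Sik1 was higher by a like amount in each tissue, at +1.69, +1.64 and +1.61 SD, and Errfi1 at +2.21, +0.98 and +1.60 SD. Per1 differed by +1.81, +0.84 and +1.07 SD, and Gpd2 by -1.54, -1.49 and -1.18 SD. The immediate early list had medians of +0.59 SD in BAT, +0.25 in WAT and +0.83 in liver, and the matrix list of +0.55, -0.39 and +0.51 SD. Many of the 127 were chosen for their difference in BAT, which by itself sets them apart from the other tissues. Differences in SD compare each tissue with its own spread and not amounts of RNA.

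**Figure D5:**
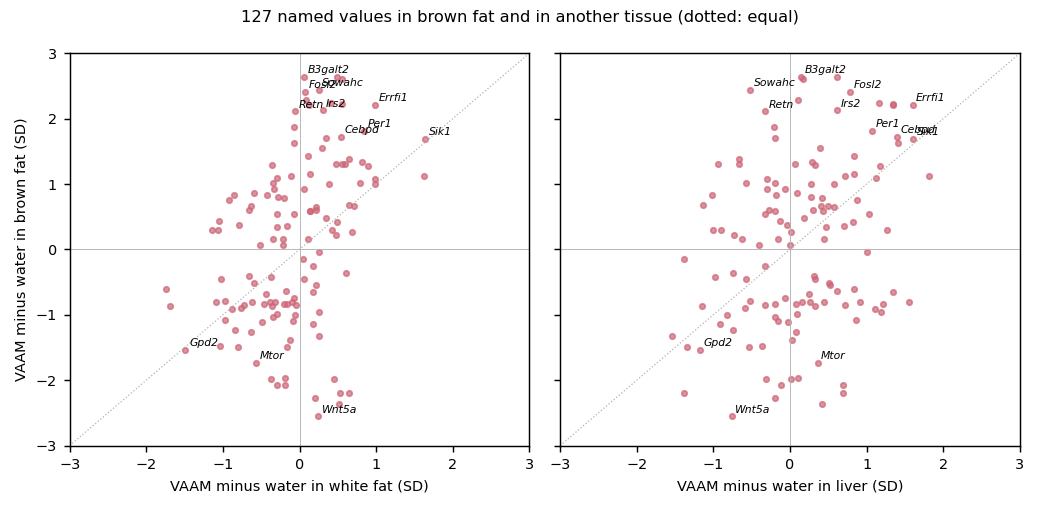
VAAM minus water in brown fat (vertical) against white fat (left) and liver (right) for the 127 named genes, in pooled within-group SD of each tissue, with a dotted line where both are equal. Sik1 lies near the line in both panels, and Fosl2, Retn and Wnt5a lie far from it in white fat.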

How the data were processed

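Total RNA of brown fat was hybridised to Affymetrix whole-genome mouse 3′ expression arrays, 1 per mouse. The authors summarised probes by DFW and deposited log2 values, in R 2.7.2 per the submitters' processing notes. No scanner intensities were used here. Groups followed the sample titles.

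Of 45101 probe sets, 64 controls were left out and 45037 were tested. With the platform annotation 34945 named 1 gene, 932 several and 9160 none, which gave 18193 genes. No filter on low values or further normalization was applied. limma 3.58.1 (R 4.3.3, eBayes, Benjamini-Hochberg) was fitted to the 14 brown fat arrays, and rank products to the same arrays with 50 permutations. Exact tests used numpy 2.4.6 and scipy 1.17.1. Scripts were tested on simulated data. The number of arrays limits the precision.

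Named genes were the 10 with the smallest limma p in each direction, the 8 highest and 8 lowest with a range over 0.1, the extremes of each list, list genes with p under 0.01, genes in the study's text and tissue checks. Other genes of the lists were chosen after their values were seen. Members and lists were chosen with earlier results of these data known. Of 763 list and marker genes 716 were matched. The authors' own comparisons were not used as values. Alternatives covered quantile normalization, filters, priors, weights, a replicate block, probe set means and left-out arrays, and those without VAAM mice 3 and 5, with a muscle covariate or with labels permuted together were chosen after seeing the data.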

Additional observations from a re-analysis of the deposited data

Results flagged for a closer look

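Among 254 groups of 7 values of named genes, 29 held a mouse whose gap to its nearest neighbour, as a share of the group's range, was over Dixon's critical value at 95%. Chance flags about 1 group in 20 when groups are independent. These groups share the same mice, and many of the genes were chosen for their differences or range, so that rate does not apply here. VAAM mouse 5 was the lowest of its group in Itsn2 (0.856), Wnk1 (0.849), Tns1 (0.832), Nedd4 (0.826), Secisbp2l (0.791), Ankrd11 (0.758), Malat1 (0.744) and Hdlbp (0.741). VAAM mouse 3 was the highest in Ptpn6 (0.680), B3galt2 (0.607), Rgs10 (0.604), Thy1 (0.604), Pnp (0.600) and Cd22 (0.597), and the lowest in Cox7a1 (0.703) and Rgs5 (0.641). VAAM mouse 6 was the highest in Nfkbia (0.750), Ddit4 (0.703), Rasd1 (0.644), Fosl2 (0.635) and Sowahc (0.595), and the lowest in Casd1 (0.673). VAAM mouse 4 was the highest in S100b (0.601).

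Of the water mice, mouse 6 was the highest in Cebpd (0.793) and Cd22 (0.712), mouse 5 the lowest in Gmnn (0.807) and the highest in S100b (0.643), mouse 3 the lowest in Robo4 (0.745) and mouse 4 the lowest in Sowahc (0.616).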

How the results depend on the processing

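Probe sets called at an adjusted p under 0.05 numbered 0 under every limma alternative run other than 1 fit over the 42 arrays, with 101 higher and 214 lower. The calls of that fit rest on a spread shared by all tissues and are not read as differences in BAT. Probe sets with an unadjusted p under 0.05 numbered 43 higher and 73 lower after quantile normalization, 547 and 575 among those above the median mean, and 2119 lower in the fit over 42 arrays. With an array left out they ranged from 813 to 1263 higher and from 1055 to 1687 lower. Rank products called 120 higher and 48 lower with unit SD, 446 and 425 after quantile normalization, 516 higher without VAAM mice 3 and 5, and, with 1 array left out, 608 (without VAAM mouse 7) to 1150 higher and 770 to 1143 lower.

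Quantile normalization turned 35 of 127 named genes, of which 11 had an unadjusted p under 0.05 as deposited: Bag3 (-0.15), Calml3 (-0.06), Casd1 (-0.25), Clk1 (-0.01), Cox7a1 (0.20), Crebbp (-0.21), Mogat1 (-0.19), Slc38a2 (-0.24), Sowahc (-0.03), Spty2d1 (-0.33) and Zfp119b (-0.07), in SD, beside a shift of -0.21 SD over all genes. The mean over probe sets turned Crebbp to -0.64. After quantile normalization list medians were -0.20 for adrenergic signalling, 0.01 for immediate early genes, -0.27 for insulin, -0.24 for ATF4, -0.21 for mTOR, -0.17 for glycine and proline metabolism, -0.22 for amino acid transporters, -0.02 for heat shock, -0.30 for chromatin, 0.17 for the study's higher genes and -0.25 for nerve markers. With probe sets averaged, chromatin was at -0.65 and the study's lower genes at -0.80. Without VAAM mice 3 and 5, NF-kappa B was at -0.35, the cell cycle at -0.90, the study's lower genes at -0.39 and T cell markers at -0.48. With 1 array left out, regulators of G protein signalling ranged from -0.22 (without VAAM mouse 3) to 0.31, the cell cycle from -0.58 (without VAAM mouse 3) to 0.32, and the study's lower genes from -0.27 to 0.08 (without water mouse 6). Differences between tissues that passed adjustment numbered 3 against WAT and 4 against liver without VAAM mouse 6, from 0 each with all arrays, and 1 against liver after quantile normalization. The cause of these shifts was not tested.

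Replicate numbers did not pair the groups, with correlations of same-numbered mice from -0.191 to 0.174, and only numbers 1 and 2 correlated best with their own number in both directions. With the replicate block the unadjusted limit was met by 1107 probe sets higher and 1340 lower, and the adjusted limit by 0. Of 47 named genes with an unadjusted p under 0.05, 10 were without it in at least 1 left-out array, and 29 others gained it. The compressed scale limits all sizes, since a probe set with an SD near the median of 1.06e-05 gives no fold change.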
